A study of Mus musculus with 16 samples.

Results

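The microglia of 4 WT p38+/+ mice, the normal group of a study of p38α in an amyloid model, are described here on their own: which genes they express, in which proportions, and how far the 4 mice differ. Genes were selected by level alone, as those of the deposited gene table with at least 1 CPM (count per 1000000 assigned reads) in each of these 4 libraries. That left 11608 genes of 20267, or 57.3%, and 4 samples of the 16 in the series. No groups are compared here, so no significance test is given, and each mouse is 1 replicate (n = 4).

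The WT p38+/+ mice were on a C57BL/6J background, carried no APPswe/PS1dE9 transgene and were homozygous for the floxed p38α allele (p38 fl/fl) without Cx3cr1-creERT2. The other 3 groups, each of 4 mice, were AD p38KO, AD p38+/+ and WT p38KO, all p38 fl/fl as well. The AD mice carried APPswe/PS1dE9, the transgenes that lead to amyloid plaques, and the p38KO mice carried Cx3cr1-creERT2, a tamoxifen-dependent recombinase under the promoter of Cx3cr1, which other macrophages also use. All mice, the WT p38+/+ mice included, ate a diet with 400 ppm tamoxifen for 4 weeks from 5 months of age, and brains were taken at about 11 months after behavioral testing. Microglia were sorted as live CD11b+/P2ry12+ cells, about 10000 per mouse, from 1 hemisphere without olfactory bulb, brainstem or cerebellum, and the 4 mice sequenced in a group were those with the highest RNA integrity. What follows therefore describes cells that carry P2ry12 on their surface, and P2ry12-low microglia were not measured. The labels give mouse 1 as female and mice 2 to 4 as male. Xist, the RNA that silences an X chromosome in females, was at 253.8 CPM in mouse 1 and at most 0.0609 CPM in mice 2 to 4. Ddx3y, a gene of the Y chromosome, was at 0 CPM in mouse 1 and at 77.2, 44.5 and 46.3 CPM in mice 2, 3 and 4, so the labels and the data match.

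Microglia are the resident macrophages of the brain. They depend on signals through the CSF1 receptor, probe the tissue with processes guided by purinergic receptors, and take up cell debris, synapses and protein aggregates that they degrade in lysosomes. In the healthy adult brain they keep a ramified, surveying form and express a set of genes, often called homeostatic, that is reduced when they respond to injury or amyloid.

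By an estimate from the CPM worth of 1 read, the 4 libraries held 13.1 to 16.4 times 1000000 assigned reads, so 1 read was worth 0.0610 to 0.0761 CPM and 3 reads 0.183 to 0.228 CPM. Between 16987 and 17942 genes had a value above 0 in a library. The genes kept held 99.6 ± 0.0477% of all CPM (SD, n = 4). Of the 8659 genes set aside, 790 were at 0 in all 4 libraries and 2809 reached 1 CPM in 1 to 3 of them. Protein-coding genes made up 10084 of the genes kept and 95.7% of CPM. The 444 long noncoding RNAs held 0.826% and the 827 pseudogenes 1.86%. In bulk RNA, fewer cells of a type and less RNA per cell cannot be told apart.

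A few genes held much of the RNA. The single most abundant gene took 2.42 ± 0.461% of CPM, the 10 most abundant took 12.7 ± 0.998%, and the 100 most abundant took 32.6 ± 2.17% (SD, n = 4). The 100 most abundant genes held 32.7, 30.0, 32.6 and 35.3% in mice 1 to 4, so mouse 2 had the most even library and mouse 4 the least even. On average 44 genes held 25% of CPM, 431 held 50%, 2042 held 75% and 4740 held 90%. The median gene kept was at 25.7 CPM. Only 4 genes averaged at least 10000 CPM, 102 at least 1000 CPM and 1745 at least 100 CPM.

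CPM grows with transcript length, so levels of different genes are compared below per exonic length, on a scale on which the genes kept add up to 1000000 (level per length). Of the 100 genes highest by CPM, 77 were also among the 100 highest by level per length, and across all genes kept the ranks on both scales correlated with a Spearman coefficient of 0.869, a description across genes.

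The most abundant transcript by far was that of Cst3, cystatin C, a secreted inhibitor of cysteine proteases. It was at 23434, 20393, 22240 and 30898 CPM in mice 1 to 4 and had a level per length of 61825 ± 9550 (SD, n = 4). Mouse 4 was the highest, and the 4 mice stayed within 1.51-fold of each other. Cst3 lies on chromosome 2 of GRCm38 from 148871722 to 148875692. Ctsd, the aspartic protease cathepsin D, was also near the top with a level per length of 17406 ± 2157 and with 15997, 15995, 14650 and 20119 CPM. Tmsb4x, which encodes thymosin beta 4, a protein that binds actin monomers, was at 6076, 3040, 4662 and 4247 CPM. Its level per length averaged 12834 ± 3248, lowest in mouse 2, although reads of its processed copies elsewhere in the genome may be shared with it. Ctss, the cysteine protease cathepsin S, came next with a level per length of 11231 ± 1827.

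**Figure D1:**
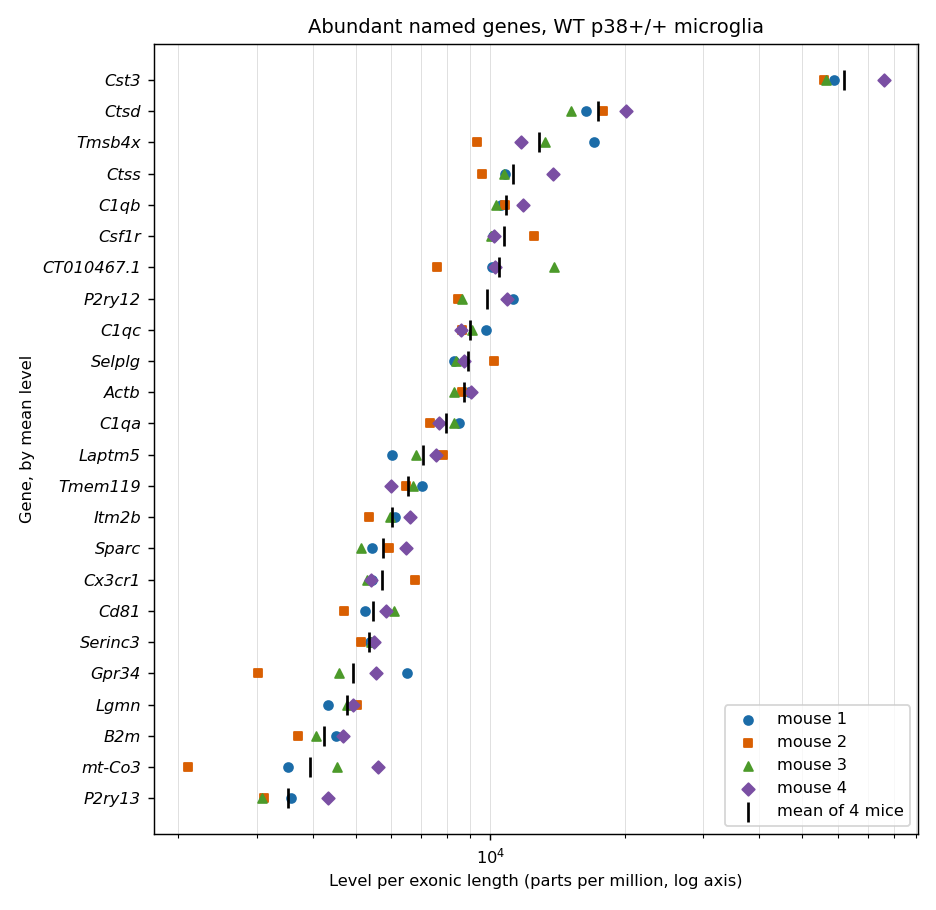
Level per exonic length (genes kept add up to 1000000, log axis) of 24 of the most abundant named genes, from the highest mean at the top, with each of the 4 WT p38+/+ mice as a point and their mean as a bar. Cst3 stands above all others at 61825, and mouse 2 lies clearly below the other mice for Gpr34 and mt-Co3.

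Surface proteins of microglia were prominent among the next ranks. Csf1r, the receptor for the growth factors CSF1 and interleukin 34, was the second gene by CPM (18184, 20655, 17818 and 18655 CPM) but the seventh by level per length (10724 ± 1224), which divides by its long transcript. It was also one of the steadiest, with 1.16-fold between the highest and the lowest mouse. P2ry12, the ADP receptor that directs microglial processes and the surface protein used in the sort, was at 10100, 6948, 7684 and 10000 CPM, a level per length of 9818 ± 1464. Selplg, a ligand of selectins, reached 8908 ± 879, and Tmem119, a membrane protein used to tell microglia from other macrophages, 6548 ± 438. Cx3cr1, the receptor for the neuronal chemokine fractalkine, had a level per length of 5732 ± 702 and stayed between 7842 and 9296 CPM. Gpr34, a receptor for lysophosphatidylserine, was at 5846, 2489, 4065 and 5096 CPM, so mouse 1 was 2.35-fold above mouse 2. P2ry13, another ADP receptor, was at 4192, 3339, 3568 and 5188 CPM.

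Among the most abundant genes were also the 3 chains of complement C1q, the first component of the classical pathway. C1qb, C1qc and C1qa, whose genes lie next to each other on chromosome 4, had levels per length of 10872 ± 686, 9027 ± 543 and 7958 ± 533 (SD, n = 4). Others were Actb (cytoplasmic actin), Laptm5 (a lysosomal membrane protein of blood cells), Itm2b (an integral membrane protein), Sparc (a secreted matrix protein), the tetraspanin Cd81, Serinc3, the lysosomal protease Lgmn, B2m (the light chain of MHC class I) and mt-Co3 of the mitochondrial genome. An entry annotated as ribosomal RNA on chromosome 17, CT010467.1, was at 8626, 5953, 11765 and 8962 CPM and is rRNA left in the libraries, not messenger RNA.

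The stretch of 250 bases before the transcription start is shown for 4 genes, since promoters of the most abundant genes and of the most variable genes differed in how many CG dinucleotides they hold. In the RefSeq promoters (GRCm38.p6), 8410 of the 11608 genes kept were matched, with a median of 16 CG in 250 bases, against 6 over all 32851 promoters. For 24 matched homeostatic genes of 35 the median was 4, for 66 of the 100 genes highest per length 8, for 29 of 40 interferon-stimulated genes 3, and for 13 of the 15 most variable genes described further down 31. P2ry12 (chr3:59262986-59263235, minus strand) has 3 CG and Cst3 (chr2:148875513-148875762, minus strand) has 8. Clstn1 (chr4:149586218-149586467, plus strand) has 38 and Cebpb (chr2:167688665-167688914, plus strand) 41, both from the most variable genes. All are given 5′ to 3′ on the strand of the gene, with CG in capitals.
P2ry12: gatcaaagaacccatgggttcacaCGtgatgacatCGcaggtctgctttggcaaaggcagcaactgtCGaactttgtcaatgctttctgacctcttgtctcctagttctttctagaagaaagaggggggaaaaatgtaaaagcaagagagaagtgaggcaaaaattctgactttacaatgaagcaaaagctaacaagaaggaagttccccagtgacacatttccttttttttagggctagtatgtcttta
Cst3: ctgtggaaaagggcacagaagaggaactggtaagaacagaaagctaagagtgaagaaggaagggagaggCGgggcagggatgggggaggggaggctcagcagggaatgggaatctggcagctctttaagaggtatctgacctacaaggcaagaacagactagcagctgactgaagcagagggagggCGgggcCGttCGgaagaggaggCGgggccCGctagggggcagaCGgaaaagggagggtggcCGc
Clstn1: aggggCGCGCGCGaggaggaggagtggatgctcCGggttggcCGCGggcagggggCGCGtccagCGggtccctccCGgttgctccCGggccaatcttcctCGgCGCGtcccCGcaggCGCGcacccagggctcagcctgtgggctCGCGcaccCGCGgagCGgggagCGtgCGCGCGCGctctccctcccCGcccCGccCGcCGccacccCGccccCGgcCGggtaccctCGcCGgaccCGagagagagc
Cebpb: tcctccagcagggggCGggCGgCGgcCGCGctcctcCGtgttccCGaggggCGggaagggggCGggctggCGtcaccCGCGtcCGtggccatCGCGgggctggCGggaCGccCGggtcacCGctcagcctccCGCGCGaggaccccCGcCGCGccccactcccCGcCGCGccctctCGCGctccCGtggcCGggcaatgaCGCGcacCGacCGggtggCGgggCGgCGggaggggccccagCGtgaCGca

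Homeostatic genes as a class were at the top of the range. All 35 listed genes passed the level filter. Their median level per length was at the 99.4th percentile of the genes kept, and the list held 14.9 ± 1.14% of CPM (SD, n = 4; shares here and below are summed over all listed genes in the table), with 15.2, 13.7, 14.3 and 16.3% in mice 1 to 4. The list includes Cst3 and Ctss. The lowest member was Adora3, an adenosine receptor, at 149.6, 122.0, 131.9 and 147.9 CPM. Members varied between mice about as much as other genes of their level, with a median relative spread of 1.05. Relative spread is the SD of log2(CPM + 0.5) over the 4 mice divided by the running median of that SD in genes of like level, so that 1 is typical. Gpr34 (2.77) and Slc2a5 (2.56), a fructose transporter at 272.7, 236.2, 232.0 and 482.1 CPM and highest in mouse 4, had the largest relative spread of the list.

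Transcription factors of the lineage were mostly at moderate levels. Of 26 listed, 24 were kept, at a median percentile of 81.8 by level per length and 0.693 ± 0.0657% of CPM. Irf8, Irf5 and Mef2c were among the highest per length. Irf8, which microglia need for their development, was at 687.1, 731.9, 694.0 and 606.7 CPM. Sall1, the zinc finger protein most restricted to microglia among brain macrophages, was at 807.9, 920.1, 734.8 and 726.9 CPM. Spi1, which encodes PU.1, was at 283.1, 335.6, 310.8 and 296.1 CPM. For Irf8, Sall1 and Spi1 the mice lay close together. Mitf, a factor of lysosomal and melanocyte genes, was at 22.2, 23.7, 23.2 and 9.13 CPM, with mouse 4 apart. Cebpb, a factor of inflammatory responses, was at 3.39, 22.11, 86.5 and 49.7 CPM, the widest range of any kept gene named here.

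Signalling through CSF1R and TREM2 was among the steadiest classes. It held 2.50 ± 0.144% of CPM with 17 of 19 members kept, and its median relative spread was 0.760. Trem2, the lipid receptor of the pathway, was at 681.0, 657.3, 750.4 and 757.1 CPM. Tyrobp, its adaptor, was at 744.5, 506.3, 746.5 and 970.9 CPM and had a higher level per length than Trem2, 2764 against 918. Lyn, a Src family kinase, was at 1147, 1074, 1046 and 976.8 CPM. The ligand Csf1 was low, at 23, 25.9, 11.5 and 13.7 CPM.

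Degradation accounted for a large part of the RNA. Cathepsins and cystatins held 6.20 ± 0.919% of CPM, of which Cst3 was the largest part, with 14 of 17 members kept and 10 of them highest in mouse 4, which was highest in 17.5% of all genes kept. Below Cst3, Ctsd and Ctss came Lgmn at 3884, 4136, 4223 and 4511 CPM. Ctse, Ctsk and Ctsw were set aside. All 37 listed lysosomal hydrolases and membrane proteins were kept, and these held 4.70 ± 0.239% of CPM with a median relative spread of 0.884 and none above 2. Grn, which encodes progranulin, was at 3090, 3357, 3175 and 3495 CPM. Psap, the precursor of the saposins that assist lipid breakdown, was at 3140, 4787, 3758 and 4203 CPM, and Lamp2, a lysosomal membrane protein, at 1489, 835.0, 1258 and 1362 CPM. Mouse 2 was highest for Psap and lowest for Lamp2. Of the vacuolar proton pump, which acidifies lysosomes, 16 of 17 members were kept, all but Atp6v0d2, and their median relative spread was 0.796.

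Sensing and uptake receptors were broadly present. Complement genes held 1.93 ± 0.0812% of CPM, and besides C1q the receptor subunit Itgam (CD11b, the other surface protein of the sort) was at 1377, 2128, 1532 and 1902 CPM. C3, the central component that is cut on activation, was set aside at a mean of 0.950 CPM, and C4b was at 29.1, 19.1, 9.79 and 4.63 CPM, with a relative spread of 3.22. All 6 Fc gamma receptor genes were kept. Fcer1g, their shared signalling chain, and Fcgr3 led with levels per length of 2518 and 2516. Of 20 toll-like receptor genes and accessory proteins, 18 were kept, led per length by Unc93b1, which carries the endosomal receptors, at 1527, 1886, 1858 and 1891 CPM. Tlr13 and Tlr7, sensors of RNA, had levels per length of 369.5 and 275.4, against 169.1 for Tlr4, the receptor of endotoxin. Tlr4 was at 423.7, 238.3, 298.3 and 292.4 CPM, highest in mouse 1. Of the uptake receptors 17 of 23 were kept. Sirpa, which binds the "do not eat" signal CD47, led with 4169, 5354, 4782 and 4634 CPM, and Mertk, a receptor for apoptotic cells, was at 932.9, 1361, 963.1 and 953.0 CPM. Timd4 and Megf10 were at 0 in all 4 libraries.

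Among purinergic genes, Entpd1, the enzyme that degrades extracellular ATP, was at 1352, 1196, 1107 and 1250 CPM, and P2ry6, a UDP receptor, at 379.6, 398.3, 361.0 and 356.7 CPM. Adora2a, an adenosine receptor, was at 0 in all mice. Chemokine receptors were dominated by Cx3cr1. Ccr6 was at 336.5, 396.8, 356.1 and 524.8 CPM. Ccr1, a receptor of inflammatory chemokines, was at 57.0, 20.1, 21.8 and 72.4 CPM, with mice 1 and 4 high and mice 2 and 3 low, and had a relative spread of 3.72.

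Cytokine and chemokine genes held a small share of CPM. Their kept members were at median percentiles of 73.3 (cytokines) and 65.3 (chemokine ligands) by level per length. The counts kept are to be read beside the 57.3% kept of all genes. Of 21 cytokine genes in the table, 11 were kept, and the list held 0.137 ± 0.0103% of CPM, led per length by Il16 (432.3, 405.6, 401.9 and 351.0 CPM) and Tgfb1 (237.7, 253.5, 223.2 and 227.8 CPM). Bmp2k, the next of the list, is a kinase and not a cytokine. Il1a was at 111.1, 100.5, 92.5 and 100.9 CPM, whereas Il1b was set aside with a mean of 1.24 CPM and Tnf with 2.81 CPM. Of 19 chemokine genes 9 were kept, with Ccl6 at 196.2, 136.4, 172.6 and 243.9 CPM and Ccl3 at 6.38, 21.5, 7.59 and 11.1 CPM.

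The branches of antigen presentation differed in summed share more than in the level of their members. Kept members were at median percentiles of 83.4 (MHC class I list) and 80.6 (MHC class II list) by level per length. The MHC class I list, with 18 of 18 kept, held 0.617 ± 0.0287% of CPM and had a median relative spread of 0.989. H2-D1, a class I heavy chain, was at 699.8, 798.7, 674.6 and 707.7 CPM. The MHC class II list held 0.110 ± 0.0136%, with 11 of 13 kept. H2-DMa, which loads peptides, was its highest member per length, at 248.4, 250.7, 280.0 and 280.6 CPM. The chains that present the peptide were scarcer and were high in mouse 1: H2-Aa was at 63.5, 14.5, 18.3 and 26.5 CPM. H2-Ab1 was at 86.5, 27.7, 27.9 and 44.7 CPM and H2-Eb1 at 49.7, 13.3, 12.8 and 16.8 CPM. Cd74, the invariant chain, was at 165.9, 88.9, 68.5 and 67.1 CPM. Ciita, the master regulator of the class, was set aside at a mean of 0.273 CPM.

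Interferon-stimulated genes lay near the middle of the range. Of 40 listed, 31 were kept, at a median percentile of 43.4 by level per length, and the list held 0.0957 ± 0.0132% of CPM with a median relative spread of 1.32. Lgals3bp, a secreted glycoprotein, was the highest, at 178.1, 292.7, 247.1 and 220.0 CPM. Irf7, which amplifies the response, was at 4.64, 8.70, 5.31 and 1.74 CPM. Ifit1, Mx1, Oas2 and Zbp1 did not reach 1 CPM in every mouse.

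Short motifs in the promoters were looked for on both strands of the same 250 bases, and a match is a description of the letters alone. The core of the interferon-stimulated response element, AAANNGAAA, was in 21 of 34 promoters of interferon-stimulated genes (61.8%), against 9.37% of all promoters and 6.98% of those of genes kept. GAGGAAGT, an ETS motif of the type that PU.1 binds, was in 5 of 84 promoters (5.95%) of the 100 genes highest per length. It was in 2.61% of those of genes kept and 2.44% of all. TCACGTGA, an E-box of the type found in lysosomal promoters, was in 4 of these 84 promoters (4.76%), against 1.63% for genes kept and 0.785% of all. The core of the heat shock element, GAANNTTC, was in 6 of 19 promoters of heat shock genes (31.6%), against 5.16% for genes kept and 6.69% of all. The AP-1 motif TGACTCA (4.76%, against 2.79% for genes kept and 4.46% of all), the cyclic AMP response element TGACGTCA (1.19%, against 2.64% and 1.55%) and TATAAA (16.7%, against 6.13% and 12.4%) were also searched in the 100 genes highest per length. In this set the interferon element was in 14.3% and the heat shock element in 10.7%, also above their shares in genes kept. A higher share was not particular to the ETS motif or the E-box. The ETS motif was in 1 of 29 promoters of homeostatic genes. Of 31 promoters of lysosomal hydrolases and membrane proteins, 2 (6.45%) had the E-box and 5 (16.1%) the AP-1 motif. The motifs differ in letters, and the only one of these 7 in each of the 4 promoters that follow is the one in capitals. They are examples of matches in the sets above. C1qc and Ctsd are from the 100 genes highest per length, Lgals3bp from the interferon-stimulated genes and Dnaja1, a heat shock co-chaperone, from the heat shock genes. The stretches are those of C1qc (chr4:136892915-136893164, minus strand, match at position -195 from the start, read on the opposite strand), Ctsd (chr7:142387828-142388077, minus strand, at -99), Lgals3bp (chr11:118401960-118402209, minus strand, at -15) and Dnaja1 (chr4:40722218-40722467, plus strand, at -124).
C1qc: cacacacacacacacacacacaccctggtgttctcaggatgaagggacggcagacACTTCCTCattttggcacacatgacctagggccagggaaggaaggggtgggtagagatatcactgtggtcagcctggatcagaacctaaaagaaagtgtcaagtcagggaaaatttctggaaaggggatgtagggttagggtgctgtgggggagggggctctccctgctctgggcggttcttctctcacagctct
Ctsd: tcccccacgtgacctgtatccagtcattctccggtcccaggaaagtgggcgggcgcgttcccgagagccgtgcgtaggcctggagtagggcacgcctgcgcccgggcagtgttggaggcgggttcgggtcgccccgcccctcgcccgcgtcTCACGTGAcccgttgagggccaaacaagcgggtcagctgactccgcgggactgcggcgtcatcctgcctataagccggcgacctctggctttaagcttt
Lgals3bp: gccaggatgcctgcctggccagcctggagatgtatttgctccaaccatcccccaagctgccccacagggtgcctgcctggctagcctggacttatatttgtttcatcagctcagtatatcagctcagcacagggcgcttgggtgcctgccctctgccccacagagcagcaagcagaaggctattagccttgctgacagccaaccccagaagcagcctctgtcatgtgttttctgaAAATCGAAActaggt
Dnaja1: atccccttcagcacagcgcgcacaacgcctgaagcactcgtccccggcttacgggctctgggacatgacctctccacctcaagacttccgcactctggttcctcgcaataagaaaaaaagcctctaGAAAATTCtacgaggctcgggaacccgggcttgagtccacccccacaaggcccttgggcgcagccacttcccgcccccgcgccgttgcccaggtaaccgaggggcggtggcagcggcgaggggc

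Of the genes that mark disease-associated microglia, the state described around amyloid plaques, 34 of 40 were kept, and the list held 3.17 ± 0.345% of CPM. Much of that share lay in genes that resting microglia also express, such as Ctsd, B2m, Fth1 (ferritin heavy chain) and Tyrobp. Members that are usually named as inducible were low: Itgax was at 7.87, 17.2, 12.3 and 5.78 CPM, Clec7a at 5.87, 5.598, 3.80 and 6.11 CPM, and Cst7 at 7.61, 12.4, 11.99 and 12.6 CPM. Gpnmb, Mamdc2 and Dkk2 were at 0 in all 4 libraries, which allows at most 0.228 CPM at 3 reads in any of them, for counting error only. The lipid carrier Apoe was at 263.0, 670.6, 223.1 and 141.2 CPM, and Lpl, a lipase, at 8.19, 45.9, 13.4 and 16 CPM. Both were highest in mouse 2, with relative spreads of 4.87 and 3.34. Lyz2, a macrophage lysozyme, was also highest in mouse 2 (131.6, 222.7, 104.5 and 85.3 CPM), and so was Spp1, osteopontin (19.8, 38.5, 11.8 and 11.2 CPM). In all, 12 of the 34 were highest in mouse 2 and 14 in mouse 4, against 4336 and 2028 of the 11608 genes kept.

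Metabolic and housekeeping classes were of moderate size. The 15 genes of the mitochondrial genome held 1.09 ± 0.279% of CPM. The cytosolic ribosomal proteins, with 78 of 79 kept, held 0.382 ± 0.0830%, and reads of their many processed pseudogenes may be shared with them. The actin and cytoskeleton list held 2.34 ± 0.253%. Glycolysis genes had a median relative spread of 0.844 (0.494 without mouse 4), with Ldhb (383.7, 331.7, 340.9 and 495.6 CPM) the highest per length. The iron genes were led by Fth1 at 1359, 986.7, 1253 and 1561 CPM and Ftl1, ferritin light chain, at 734.5, 608.9, 608.7 and 645.0 CPM. Slc40a1, the iron exporter ferroportin, was steady at 626.8, 583.6, 630.4 and 606.9 CPM. TGF-beta signalling, which microglia need to keep their identity, was led by the receptor Tgfbr1 (4748, 3622, 5000 and 4497 CPM). Cholesterol synthesis was low, at 0.0558 ± 0.00192%. Proliferation genes were the lowest class by level, with a median percentile of 8.03, and Mki67, the marker of cycling cells, was set aside at a mean of 2.60 CPM. Mapk14, the gene of p38α that is floxed but intact in these mice, was at 165.7, 210.2, 183.3 and 161.8 CPM, while the related Mapk11, Mapk12 and Mapk13 were set aside.

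**Figure D2:**
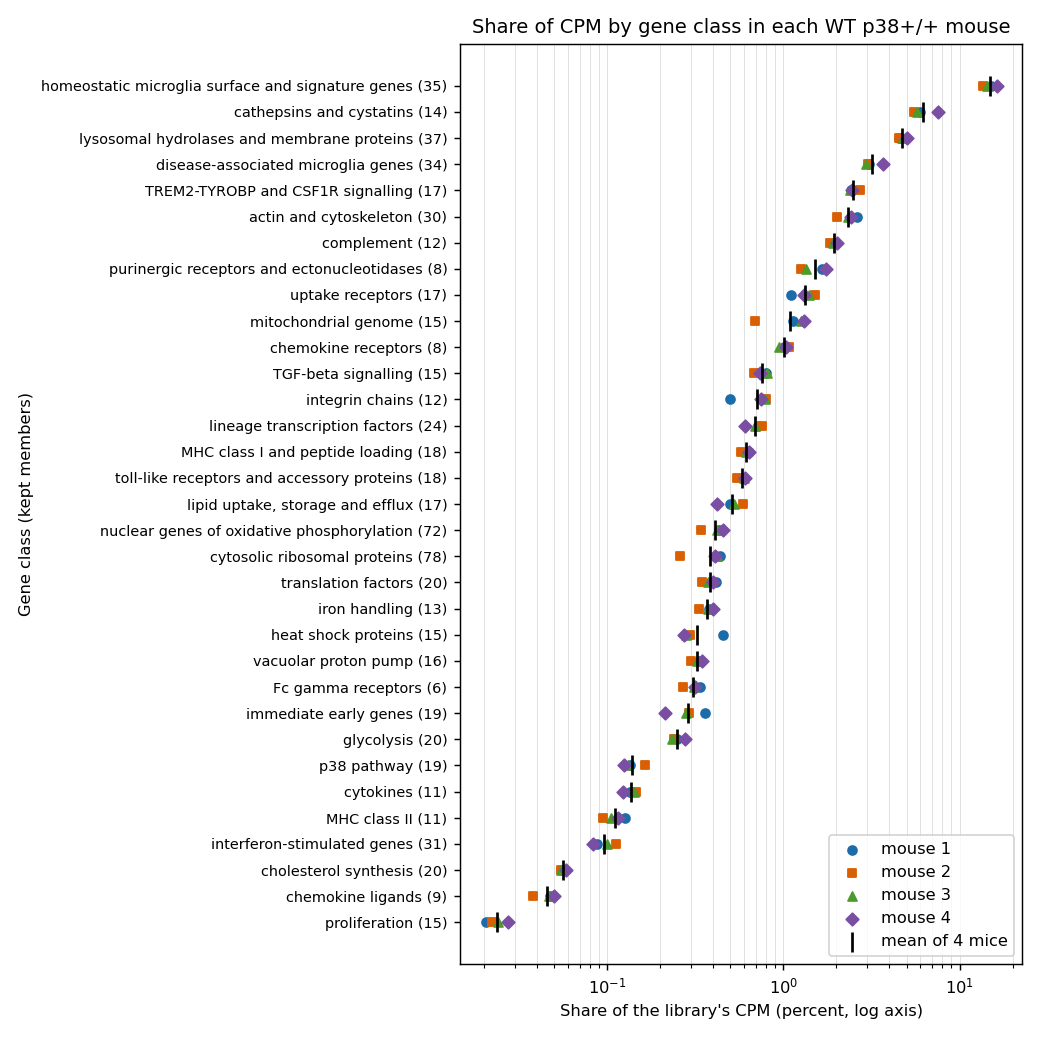
Share of each library's CPM (percent, log axis) held by each gene class, from the largest mean at the top, with the number of members kept in brackets, the 4 WT p38+/+ mice as points and their mean as a bar. Homeostatic genes hold 14.9% on average. The mice lie close together for most classes, while mouse 2 is low for the mitochondrial genome and ribosomal proteins and mouse 1 is high for heat shock proteins and immediate early genes.

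Markers of other cells were checked in the same libraries. Of 16 neuronal markers in the table only Camk2a was kept (3.91, 2.19, 3.95 and 1.99 CPM), and Snap25, a synaptic protein, averaged 1.25 CPM. None of the 9 markers of mural cells and fibroblasts and none of the 7 of red blood cells were kept. Some listed genes are also expressed by microglia or other myeloid cells, among them the highest kept astrocyte marker, Slc1a3 (230.2, 195.2, 186.1 and 145.9 CPM), and Csf3r in the neutrophil list (338.1, 529.8, 439.5 and 433.0 CPM). The defining genes Aqp4 and Gfap of astrocytes averaged 0.825 and 0.798 CPM, Cldn5 and Cdh5 of endothelial cells 0.0643 and 0.208 CPM and Mog of oligodendrocytes 0.0827 CPM. Of the endothelial list, 5 of 14 were kept, and their source was not tested. Bsg, a widely expressed membrane protein, averaged 428.0 CPM, the glucose transporter Slc2a1 110.6, the adhesion protein Pecam1 33.7, the VEGF receptor Kdr 18.8 and the junction protein Ocln 16.2 CPM. Cnp, Mbp and Mag, of the myelin list, reached 96.4 to 125.3, 58.7 to 96.3 and 17.4 to 28.4 CPM.

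Markers of border-associated macrophages, which carry CD11b but little P2ry12, were low apart from Stab1. Of the 5 kept, 3 had a relative spread over 2, Stab1 among them. Summed over the 12 listed markers, the share was 0.0656, 0.0831, 0.0580 and 0.0378% of CPM in mice 1 to 4, most of it from Stab1 (571.6, 753.6, 535.9 and 351.0 CPM). Mrc1, the mannose receptor, was at 20.3, 26.8, 15.5 and 4.69 CPM, and F13a1 at 34.7, 14.9, 3.72 and 11.5 CPM. Cd163 and Lyve1 were set aside at means of 3.97 and 2.87 CPM. The 5 kept markers had a median relative spread of 2.43, and of 1.48 without mouse 4. Ttr, a transport protein of the choroid plexus, was at 50.1, 72.5, 17.5 and 15 CPM, with mice 1 and 2 high and mice 3 and 4 low. Whether such cells were in the sort, and their part in the spread of Apoe, Lyz2 or the MHC class II genes, was not tested.

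The 4 mice were close to each other for most genes. The median SD of log2(CPM + 0.5) over the genes kept was 0.30, with 0.13 at the 10th and 0.61 at the 90th percentile, and the median coefficient of variation was 21.2%. The highest mouse was a median of 1.62-fold above the lowest. In 3113 genes (26.8%) the range was over 2-fold and in 369 (3.18%) over 4-fold. Of the 6627 genes with at least 20 CPM, 881 (13.3%) ranged over 2-fold and 68 over 4-fold. The spread narrowed with level, with a median SD of 0.42 for 1526 genes under 5 CPM, 0.37 between 5 and 20 CPM, 0.27 between 20 and 100 CPM and 0.20 between 100 and 1000 CPM. For the 102 genes above 1000 CPM it was 0.21, no lower than for the class before. Counting at the estimated depth would give 0.19 in the lowest of these classes and 0.01 in the highest, so most of the spread was not counting error.

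**Figure D3:**
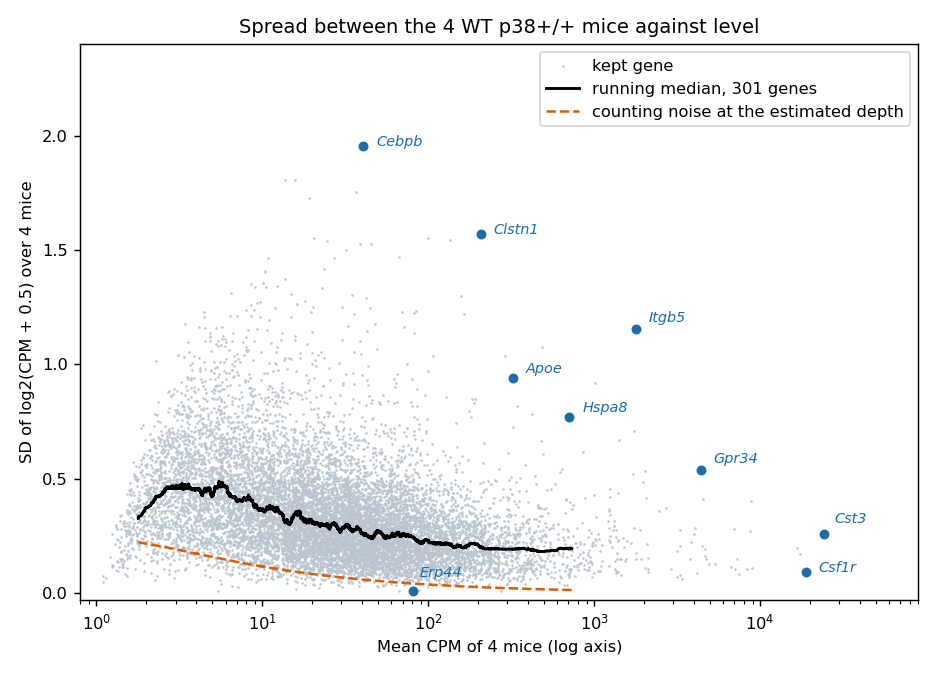
SD of log2(CPM + 0.5) over the 4 WT p38+/+ mice against mean CPM (log axis) for the 11608 genes kept, with the running median over genes of like level (solid) and the spread that counting alone would give (dashed). The median falls with level and stays above the counting line. Cebpb, Clstn1 and Itgb5 stand far above genes of their level, and Csf1r and Erp44 below.

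No mouse was free of genes in which it stood alone. Mice 1 to 4 were the highest of the 4 in 25.2, 37.4, 19.97 and 17.5% of the genes kept and the lowest in 24.8, 23.3, 19.7 and 32.2%, and counts for gene classes are to be read beside these shares. Pairs of mice correlated with a Pearson coefficient of 0.952 (mice 1 and 2) to 0.969 (mice 3 and 4) on log2 values across genes.

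Immediate early and heat shock genes, which respond quickly to stimulation or stress, set mouse 1 apart. The 24 immediate early genes in the table summed to 3615, 2909, 2818 and 2126 CPM in mice 1 to 4, and 13 of the 19 kept were highest in mouse 1 and 14 lowest in mouse 4. Fos, a subunit of the factor AP-1, was at 28.8, 5.78, 3.49 and 3.86 CPM. Its partner Jun was at 839.9, 393.2, 412.6 and 317.4 CPM, and Dusp1, a phosphatase that switches off p38, at 77.7, 31.1, 25.8 and 24.4 CPM. For all 3 genes mouse 1 lay above the other mice. Myc was low in mouse 4 instead, at 58.8, 59.0, 45.4 and 17.2 CPM. The median relative spread of the class was 1.90, and it was 1.13 without mouse 1. Heat shock proteins summed to 4556, 2934, 2794 and 2727 CPM, and 11 of 15 were highest in mouse 1. Hspa8, the constitutive HSP70 chaperone, was at 1374, 415.8, 533.5 and 501.6 CPM. Hspa5, its counterpart in the endoplasmic reticulum, was at 1218, 827.8, 834.3 and 833.3 CPM and Dnaja1 at 116.5, 49.8, 38.8 and 42.4 CPM. Mice 2 to 4 lay close together for both. The median relative spread of this class was 1.41, and 0.821 without mouse 1. The RNA of Hsf1, the factor that drives heat shock genes, was not highest in mouse 1, at 52.8, 70.6, 68.3 and 43.0 CPM. The activity of the Hsf1 protein was not measured. Mouse 1 is also the one female of the 4, so animal and sex cannot be told apart here.

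Mouse 2 differed in another way, along gene length. Ribosomal protein genes summed to 4360, 2585, 4221 and 4117 CPM in mice 1 to 4, and 64 of the 78 kept were lowest in mouse 2. Rps9 was at 263.4, 132.6, 250.1 and 215.0 CPM and Rpl32 at 192.2, 94.6, 175.1 and 157.1 CPM. The mitochondrial genome held 1.13, 0.689, 1.25 and 1.30% of CPM, and 12 of its 15 genes were lowest in mouse 2. mt-Co1, a subunit of cytochrome oxidase, was at 2037, 1157, 2093 and 2818 CPM. Nuclear genes of oxidative phosphorylation were lowest in mouse 2 in 62 of 72. Over 6624 genes with at least 20 CPM and a length, the deviation of mouse 2 from the mean of the 4 mice correlated with exonic length with a Spearman coefficient of 0.468. In mice 1, 3 and 4 it was -0.157, -0.0493 and -0.382. For mouse 2 the median deviation was -0.10 on the log2 scale in the shortest genes (under 2.33 kb), 0.11 in the middle and 0.23 in the longest (over 3.75 kb), and for mouse 4 it was 0.04, -0.06 and -0.16. The part of this length dependence in the class differences was not tested. Without mouse 2 the median relative spread of the ribosomal protein genes was 0.667, against 1.29 with it.

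**Figure D4:**
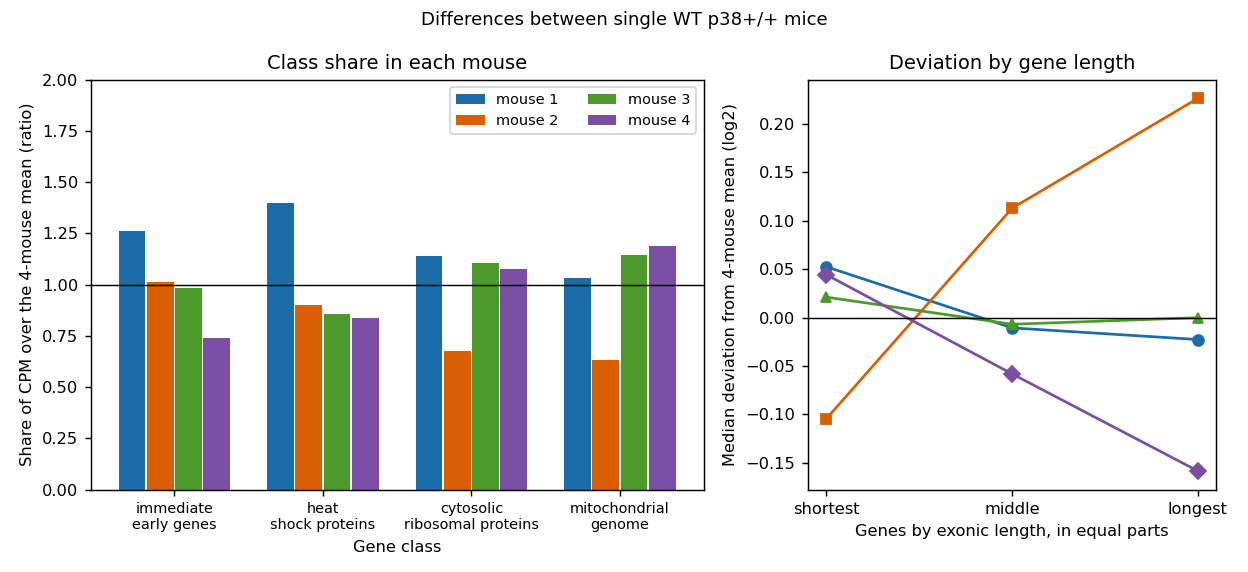
Left, share of CPM of 4 gene classes in each WT p38+/+ mouse as a ratio to the 4-mouse mean (bars from 0). Right, median deviation from the 4-mouse mean (log2) for genes with at least 20 CPM in 3 equal parts by exonic length. Mouse 1 is high for immediate early and heat shock genes, and mouse 2 is low for ribosomal and mitochondrial genes and runs from -0.10 to 0.23 with length.

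The 15 named genes with the largest relative spread among those with at least 20 CPM formed a single pattern: all 15 were lowest in mouse 1, and 11 were highest in mouse 3. Clstn1, which encodes calsyntenin 1, a transport adaptor of the cadherin family, was at 32.1, 143.5, 357.7 and 293.6 CPM, and Cebpb ranged over 25.5-fold. Itgb5, the integrin beta 5 chain that takes part in uptake of apoptotic cells, was the most abundant of them, at 451.8, 1940, 2482 and 2243 CPM. Spns2, a transporter of sphingosine-1-phosphate, was at 6.59, 49.8, 70.1 and 53.9 CPM. Sort1, the sorting receptor sortilin, was at 134.8, 595.2, 662.3 and 538.4 CPM, and Gna12, a G protein alpha subunit, at 41.3, 78.0, 271.0 and 236.5 CPM. The others were Abhd17c, Spred1, Lemd2, Cmip, Fam102b, Mogs, Selenon, Dpy19l1 and Cirbp. The integrin chain Itga9 (31.7, 130.0, 156.9 and 110.8 CPM) and Smad4, the shared effector of TGF-beta signals (4.78, 12.5, 32.9 and 30.8 CPM), were also lowest in mouse 1. Of the 100 most variable genes, 75 were lowest in mouse 1 and 45 highest in mouse 3.

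As a set, though not in every member, these genes differed from others in features that were not used to choose them. The median GC content of the exons of the 15 was 57.1%, against 49.8% over all genes with at least 20 CPM, though Spred1 (41.2%), Dpy19l1 (44.4%) and Fam102b (44.9%) were below that. Over 6624 genes, the deviation of mouse 1 correlated with GC content with a Spearman coefficient of -0.255, and that of mouse 2 with 0.246. The promoters of 13 of them held a median of 31 CG, with a range of 2 to 48, against a median of 16 for the genes kept. Clstn1 and Cebpb, shown above, lie in the upper part of that range. The difference was smaller in larger sets. The median was 23 CG for 71 matched genes of the 100 most variable and 17 for 81 of the 100 least variable. The part of base composition in the spread of the 15 genes was not tested.

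The same genes also varied within each of the other 3 groups, which share no mouse with WT p38+/+. In each group 1 mouse was lowest for nearly all of them: AD p38KO mouse 4 for 14 of 15, AD p38+/+ mouse 4 for 15 and WT p38KO mouse 1 for 14. The median deviation of the 15 genes was taken on the log2 scale from each gene's mean over all 16 libraries, not over its group. It was -2.51 in WT p38+/+ mouse 1, -1.40 in that AD p38KO mouse, -1.93 in that AD p38+/+ mouse and -0.78 in that WT p38KO mouse. The pattern was graded: AD p38+/+ mouse 3 was at -0.50, with 12 of the 15 genes below their mean over all libraries. WT p38+/+ mouse 2 was at -0.46, with 8 below. Cirbp went the other way in AD p38KO mouse 4, at 60.9 CPM, its highest value in the 16 libraries. Cebpb was at 3.39 CPM in WT p38+/+ mouse 1, 9.91 CPM in AD p38KO mouse 4, 4.68 CPM in AD p38+/+ mouse 4 and 21.5 CPM in WT p38KO mouse 1. The immediate early and heat shock sums of WT p38+/+ mouse 1, 3615 and 4556 CPM, were the highest of all 16 libraries. In the low mice of the other groups these sums were 2337 to 2902 and 3000 to 3164 CPM. Relative spread was over 2 for 13, 14 and 13 of the 15 genes in AD p38KO, AD p38+/+ and WT p38KO.

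**Figure D5:**
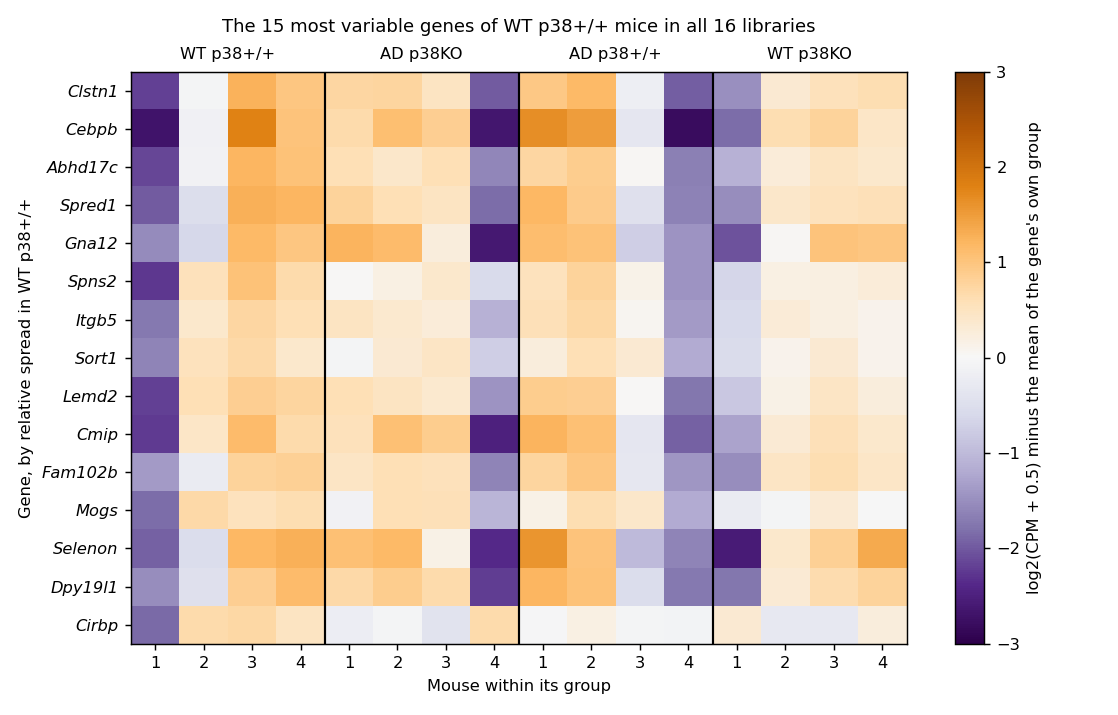
The 15 named genes with the largest relative spread in WT p38+/+ mice, in all 16 libraries, as log2(CPM + 0.5) minus the mean of the gene's own group of 4 mice (color scale). Columns are mice, with WT p38+/+ at the left. WT p38+/+ mouse 1, AD p38KO mouse 4, AD p38+/+ mouse 4 and WT p38KO mouse 1 are low for nearly all 15 genes.

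Across all genes kept, spread in WT p38+/+ mice and in the other groups was related but far from the same. The Spearman coefficient of the SDs across genes was 0.366 with AD p38KO, 0.425 with AD p38+/+ and 0.411 with WT p38KO, and 0.158, 0.227 and 0.203 for relative spread, which takes out the level. Genes are not independent replicates, and these values carry no p. Of the 580 genes in the top 5% of SD in WT p38+/+ mice, 19.7%, 35.2% and 26.6% were also in the top 5% of AD p38KO, AD p38+/+ and WT p38KO. The median SD in WT p38+/+ mice, 0.30, lay between that of AD p38KO (0.34) and those of AD p38+/+ (0.21) and WT p38KO (0.22).

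At the other end, some genes hardly differed. Erp44, a chaperone of the early secretory pathway, was at 80.2, 81.2, 81.3 and 80.5 CPM, a range of 1.01-fold and a relative spread of 0.0407. Glmp, a lysosomal membrane protein, averaged 274.8 ± 1.80 CPM, Zfp281, a zinc finger protein, 66.5 ± 0.542 CPM and Iscu, the scaffold for iron-sulfur clusters, 79.1 ± 0.780 CPM (SD, n = 4 each). Ndufs1, a subunit of respiratory complex I, averaged 53.2 ± 1.24 CPM. These 5 were picked, with Gmpr2, Lrrc40, Marchf5, Alkbh1, Nup54, Fcrl1, Eri1, Dtnbp1, Inpp4b and Mettl6, as the 15 steadiest of 6627 genes, so a spread below counting error is a result of the choice.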

How the data were processed

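RNA of sorted microglia from 16 mice, 4 per group, was sequenced with paired reads, and the 4 WT p38+/+ libraries are used here. The authors aligned reads with STAR, quantified them against Ensembl transcripts of mm10 in Partek Flow 10.0.22.0828 and deposited gene and transcript tables in CPM with 0.0001 added to every value. That 0.0001 was subtracted. Mice are separate animals. No column was left unmapped (0). Reads were not used, and counts could not be rebuilt, because reads shared between transcripts were split. The depth of a library was taken from the CPM worth of 1 read, read off the steps between its low values. The labels describe the hemispheres that were dissociated as fixed in PFA, whereas the study's methods give fixation to the opposite hemisphere.

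Exonic lengths came from GENCODE M21 (GRCm38), weighted by each gene's transcript CPM. They were found for all but 9 genes kept. Level per length is CPM divided by length, scaled so that the genes kept add up to 1000000. Spread is the SD of log2(CPM + 0.5), and relative spread divides it by the running median over 301 genes of like level. The spread calculation was tested on simulated data. Counting error assumes Poisson counts at the estimated depth. Promoters were RefSeq's, on GRCm38.p6. Gene lists and the rule for naming genes were chosen with earlier results of these data known. The rule named, leaving out predicted models, the 25 genes highest by level per length and by CPM, in each list up to 4 by level and 2 by relative spread, the 15 most and 15 least variable genes of at least 20 CPM, the 2 highest of each marker list and the sex genes. List members that were set aside could be named as well. Adora3, Sall1, Spi1, Tlr7, Mertk, H2-Eb1, Clec7a, Cst7, Lyz2, Spp1, Hsf1 and Itga6 were named after their values were seen. Some genes are in several lists, and some list members are not reported here. Alternatives were other CPM minimums, pseudocounts, scalings (TMM and quantile), lengths and windows, the transcript table, nuclear protein-coding genes alone and leaving out each mouse. Python 3.11.15, numpy 2.4.6, pandas 2.3.3, scipy 1.17.1 and matplotlib 3.10.9 were used.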

Additional observations from a re-analysis of the deposited data

Results flagged for a closer look

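Single mice that lay apart from the other 3 by Dixon's criterion at 95% were found in 25 of 280 values examined (8.93%), where chance gives about 1 in 20. Over all 11608 genes kept the share was 5.87% (681 genes). The values examined include genes named for their large spread and sums that share members, so the shares are not a like comparison.

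Mouse 1 was high for Hspa5 (1218 CPM, others 827.7 to 834.3), Hspa8 (1374 CPM, others 415.8 to 533.5), Hsp90ab1 (452.4 CPM, others 243.7 to 266.7) and Dnaja1 (116.5 CPM, others 38.8 to 49.8), and for the sum of heat shock proteins (4556 CPM, others 2727 to 2934). It was also high for Fos (28.8 CPM, others 3.49 to 5.78) and for Dusp1 (77.7 CPM, others 24.4 to 31.1). It was low for Mogs, a glucosidase of protein glycosylation (18.8 CPM, others 100.0 to 113.0), for Unc93b1 (1527 CPM, others 1858 to 1891) and for the sum of integrin chains (4983 CPM, others 7489 to 7984). Mouse 1, labelled female, had 253.8 CPM of Xist and 58.3 CPM of Tsix, its antisense gene, whose reads cannot be assigned with certainty where counting did not use strand. Markers of red blood cells summed to 3.99 CPM in mouse 1 (others 0.0609 to 0.257). The share of CPM in genes without a length was 0.0442% in mouse 1 (others 0.0343 to 0.0359%).

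Mouse 2 was low for the chemokine Cxcl16 (62.2 CPM, others 72.9 to 75.1) and for the ribosomal protein gene Rps14 (82.4 CPM, others 149.1 to 162.0). The sum of ribosomal proteins was 2585 CPM in mouse 2 (others 4117 to 4360). It was high for the initiation factor Eif4g1 (187.2 CPM, others 89.7 to 105.3) and the kinase Mknk1 (265.1 CPM, others 191.3 to 202.9).

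Mouse 3 was high for Slfn2, an interferon-stimulated gene (56.7 CPM, others 38.8 to 40.1), and for the demethylase Alkbh1 (31.2 CPM, others 29.9 to 30.1), one of the steadiest genes. Mouse 4 was high for Slc2a5 (482.1 CPM, others 232.0 to 272.7) and for the sums of disease-associated microglia genes (36797 CPM, others 29354 to 30449) and cholesterol synthesis genes (587.0 CPM, others 548.4 to 549.2), and low for Mitf (9.12 CPM, others 22.2 to 23.7).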

How the results depend on the processing

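No paired analysis was possible because no groups were compared. Of 182 recomputed values for the main results, 164 stayed within a set limit and 18 moved more. The limit was 1 SD between mice for shares and ranks, and 1.5 times for counts. For spreads and their correlations with other groups it was the jackknife error, an error computed from the values with each mouse left out. In place of CPM, level per length gave shares of 17.4% for the 10 and 40.3% for the 100 most abundant genes, 252 genes for 50%, and shares of 17.6% for homeostatic genes, 1.74% for TREM2 and CSF1R signalling, 3.09% for complement, 0.853% for uptake receptors, 10.5% for cathepsins and cystatins, 0.682% for chemokine receptors, 4.04% for disease-associated genes, 2.28% for the mitochondrial genome and 3.42% for actin and cytoskeleton. Among nuclear protein-coding genes alone, complement held 2.04% and lysosomal genes 4.96%. With a minimum of 5 CPM, the Spearman coefficients of the SDs with AD p38KO, AD p38+/+ and WT p38KO were 0.263, 0.331 and 0.319. Leaving out 1 mouse in turn, the median SD ran from 0.25 (without mouse 2) to 0.31, the genes kept from 11729 to 11860 and the genes for 50% of CPM from 401 to 457. The median relative spread ran from 0.821 to 1.81 for heat shock proteins (lowest without mouse 1) and from 1.13 to 2.53 for immediate early genes (lowest without mouse 1, highest without mouse 2). Shares ran from 14.4 to 15.3% for homeostatic genes, 5.75 to 6.42% for cathepsins and cystatins and 1.02 to 1.23% for the mitochondrial genome. Of 780 other recomputed values, 690 stayed within the same limits and 90 moved more. Leaving out 1 of 4 mice cannot move the mean share of a fixed class by 1 SD, so such values always count as within. The jackknife limit comes from the leave-one-out values themselves. Both counts of values within the limits therefore overstate how stable the results are. The causes of these shifts were not tested. With 4 mice, 1 of them female, estimates of spread are imprecise, and genes near 1 CPM rest on about 13 to 16 reads a library.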

Other observations

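Values of other classes by mouse follow. Interferon-stimulated genes were highest in mouse 2 for 15 of 31 and lowest in mouse 4 for 15 of 31, and lineage transcription factors were lowest in mouse 4 for 15 of 24. Over all genes kept, mouse 2 was highest for 37.4% and mouse 4 lowest for 32.2%, so the interferon counts were not far from those shares. Eif2ak2, a kinase that stops translation when it meets double-stranded RNA, was at 10.6, 22.2, 17.0 and 4.05 CPM in mice 1 to 4. Integrin chains summed to 4983, 7984, 7858 and 7489 CPM. Itga6, the alpha 6 chain of laminin receptors, was at 133.1, 458.1, 417.3 and 353.3 CPM, lowest in mouse 1 like Itgb5.

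Pdgfb, a growth factor for pericytes, was at 36.6, 99.4, 91.7 and 33.2 CPM, with mice 2 and 3 about equal and well above mice 1 and 4. Il18, a cytokine of the interleukin 1 family, was at 15.7, 15.7, 15.9 and 16.1 CPM, a narrower range than counting at this depth would usually give. Il18 was named after its values were seen. Mapkapk2, the main kinase downstream of p38α, was at 101.8, 170.1, 144.6 and 141.2 CPM, and 11 of the 19 kept genes of the p38 pathway were highest in mouse 2, beside 37.4% of all genes kept.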
